A study of Rattus norvegicus with 12 samples.

Results

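The axotomy response of cultured brain slices was compared between day 3 and day 7 after the cut, as the difference of the axotomy log ratio between these days. The comparison takes the 8 arrays of day 3 and day 7, 4 of each day, out of the 12 arrays of the series. Arrays were taken by the day in their titles. Day 1 (4 arrays) entered the fit only for the shared estimate of the spread and is not described. The question was which transcripts changed their response to axotomy as the lesion aged, following the series' stated interest in transcription at successive times after axotomy.

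Slices of entorhinal cortex and hippocampus were grown together as organotypic co-cultures, which keep the layered structure of the tissue and let entorhinal axons grow into the hippocampus. After 15 days in vitro, the entorhino-hippocampal pathway was cut with a knife along the border between the slices. Axotomized cultures were collected 3 or 7 days after the cut, and each array held their RNA in 1 dye and RNA of uncut (non-axotomized) cultures of the same age in the other. Both arms received the same medium with horse serum, and no drug or genetic change is named. The labels give Rattus norvegicus as the organism, while their treatment text speaks of wild type mice, and the sources used here do not settle the conflict. The age and sex of the animals are not given in the sources used here. Each day's RNA came from 2 biological replicates, with 2 arrays of exchanged dyes for each. Whether a replicate was 1 culture, several pooled cultures or 1 animal is not given, so p-values measure only the spread between these replicates, which may be technical in part.

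As background, a cut axon bundle starts a sequence of events in the tissue that loses its input: severed axons degenerate, microglia and astrocytes change state and clear debris, and neurons with lost or injured axons adjust their protein synthesis and metabolism. The integrated stress response is a pathway through which cells under amino acid shortage, unfolded protein in the endoplasmic reticulum or other stress phosphorylate the translation factor eIF2, lower general protein synthesis, and translate the transcription factor ATF4. ATF4 and its partners then switch on genes for amino acid supply, for tRNA charging and, under lasting stress, for cell death.

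The values are log2 ratios, likely of axotomized over non-axotomized cultures. The titles and the channel order of the arrays make this direction likely, but no source states it, and in a table of opposite direction every sign would turn. A value below 0 therefore likely means less transcript in axotomized than in uncut cultures of that day. The difference is day 7 minus day 3, and a gene is said to have risen or fallen when this difference passed limma's test at an adjusted p under 0.05 over 14870 genes. Errors are the standard errors (SE) of the difference from that fit, with n = 2 replicates a day. Because only ratios were available, a gene that rose may have gained transcript in the axotomized cultures or lost it in the uncut ones between the days, and these cannot be told apart.

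The difference passed the test for 53 of 14870 genes, or 0.356%, of which 25 rose (0.168%) and 28 fell (0.188%). The genes that rose held regulators and targets of the integrated stress response (Ddit3, Atf4, Asns, Atf5, Shmt2, Ppp1r15a), translation initiation factors (Eif2s2, Eif2b3, Eif3e, Eif5) and enzymes of cholesterol synthesis (Sqle, Idi1). The genes that fell held glial genes (Gjb2, Glul, Synm, A2m), genes of phagocytes (Spp1, C5ar1, Srgn) and the chemokine gene Cxcl12. Not every list of these genes shared their direction. The difference was above 0 for 12 of 23 reactive astrocyte genes (the list of Synm and A2m) and 18 of 32 chemokine and cytokine genes. The inflammatory caspase gene Casp4 rose. Differences that passed ranged in size from 0.44 to 1.47 on the log2 scale. Adjusted p lay between 0.0412 and 0.0497, so all calls sat close to the threshold. At an unadjusted p under 0.05, 1927 of the 14870 genes were counted. This is the share to set beside such counts in the lists below.

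In 51 of the 53 genes the day 3 and day 7 means lay on opposite sides of 0, against 49.1% of all genes. The day 3 mean was the farther from 0 in 43 of the 53, or 81.1%, against 54.1% of all genes. Tested against 0 on a single day in the same fit, 42 of the 53 passed on day 3 and 0 passed on day 7 by limma, against 153 and 0 of all genes. The 53 were picked for a large difference between the days, which itself favours means on opposite sides of 0 and a large mean on a single day. The shares of all genes are therefore no like baseline. As a description, most of these genes had a mean past the threshold on day 3 and a mean nearer to 0 on day 7. The test of day 3 used the same values that chose the genes. As 0 passed on day 7, their side of 0 on that day is not established.

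**Figure D1:**
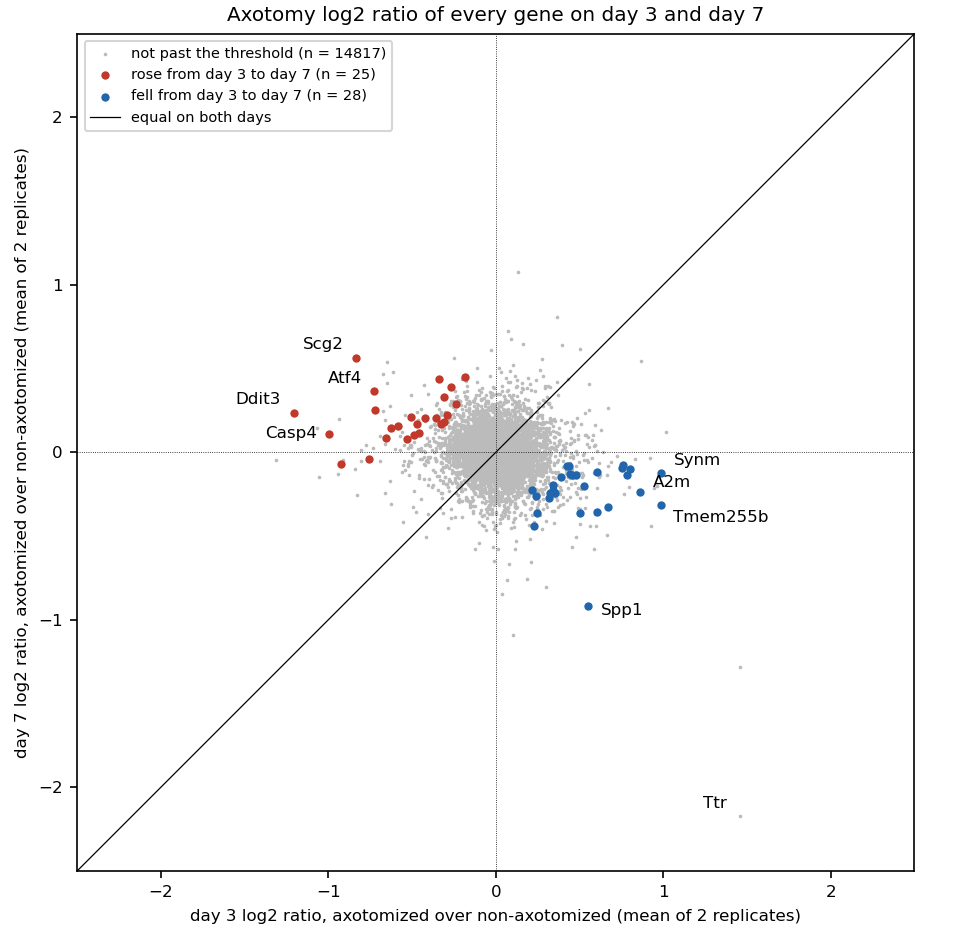
Each point is a gene, with its mean log2 ratio on day 3 on the horizontal axis and on day 7 on the vertical axis (means of 2 replicates a day). The 25 genes that rose lie left of 0 with day 7 means near or above 0, the 28 that fell lie right of 0 with day 7 means below 0, and Ttr, which did not pass, has the lowest day 7 mean.

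The calls depended on having all 6 replicates. With only the 4 replicates of days 3 and 7, or without either replicate of day 1, 0 genes passed by limma (lowest adjusted p 0.0776, with 1829 genes at an unadjusted p under 0.05). Without day 3 replicate 2 the count was also 0 by limma (lowest adjusted p 0.0622, with 2228 genes at an unadjusted p under 0.05). Leaving out day 3 replicate 1 gave 3 genes, leaving out day 7 replicate 1 gave 1 and leaving out day 7 replicate 2 gave 19, of which 0, 0 and 3 were among the 53. All 53 genes kept their sign under every alternative setting that gave them a value. That is no sign of stability where a replicate is left out, because the non-overlapping replicates fix the sign, or where an alternative changes only the error and not the difference. The 17 genes with several spots have no value under the setting restricted to genes with 1 spot. Quantile normalization changed the sizes: it moved the difference by over 1.5 times in 31 of the 34 genes past the threshold named below, for example from 1.44 to 2.14 for Ddit3, from 0.78 to 2.16 for Rpl5 and from -0.96 to -2.78 for Msx1, so differences and folds hold for the deposited scale. That normalization was run on all 44290 spots, among them 731 spots without a gene whose ratio turned with the dyes. What these spots did to the sizes was not tested.

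In all 53 genes the replicates of the days did not overlap, where 20.9% of all genes had day 7 wholly above and 21.9% wholly below day 3. A call needs a spread that is small beside the difference, so this was nearly fixed by the call and adds no support. The difference had 1 sign in both dye orientations for all 53, against 65.6% of all genes, in genes chosen on the mean of both. A single spot measured 36 of them, against 9212 of all 14870 genes. Of the 17 with several spots 14 had 1 sign on every spot, against 2874 of 5658 such genes in all. These 17 were chosen on the mean of the same spots, which favours 1 sign. In a test of the 44290 spots taken singly, 0 passed by limma (lowest adjusted p 0.0898), with 4668 at an unadjusted p under 0.05. Across genes, which are not independent, the replicates of day 3 correlated at r = 0.40 and those of day 7 at 0.29.

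**Figure D2:**
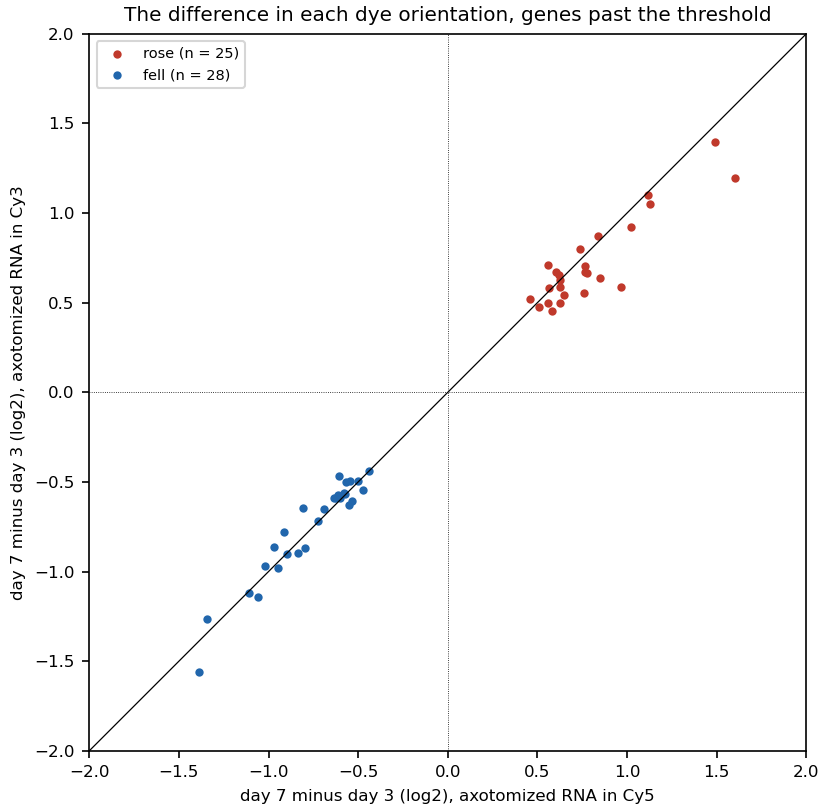
Each point is 1 of the 53 genes past the threshold, with the day 7 minus day 3 difference (log2) from arrays with the axotomized RNA in Cy5 on the horizontal axis and from arrays with it in Cy3 on the vertical axis. All 25 genes that rose are above 0 and all 28 that fell are below 0 in both orientations, near the line of equal values.

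The integrated stress response gave the rise with the largest difference. Ddit3 encodes CHOP, a transcription factor that promotes cell death under lasting stress. Its ratio was -1.09 and -1.33 in the replicates of day 3 and 0.13 and 0.35 in those of day 7, a rise of 1.44 ± 0.12 (SE; 2.72-fold, adjusted p 0.0412). Both day 3 replicates were below 0 and both day 7 replicates above it, with no overlap. Atf4, the central transcription factor of the pathway, read -0.78 and -0.67 on day 3 and 0.20 and 0.53 on day 7, a rise of 1.09 ± 0.11 (adjusted p 0.0446). The day 7 replicates of Atf4 were farther apart than those of day 3, and the days did not overlap. Atf5, a related factor whose messenger RNA is also translated under stress, read -0.65 and -0.66 on day 3 and -0.01 and 0.19 on day 7, a rise of 0.74 ± 0.083 (adjusted p 0.0451). It was low on day 3 and near 0 on day 7.

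Targets and the feedback arm of the pathway followed the same course. Asns, the enzyme that makes asparagine, read -0.73 and -0.72 on day 3 and 0.30 and 0.20 on day 7, a rise of 0.97 ± 0.091 (adjusted p 0.0429). Its 2 replicates lay close together on each day. Shmt2, a mitochondrial enzyme that moves carbon from serine to folate, read -0.62 and -0.63 on day 3 and 0.25 and 0.04 on day 7, a rise of 0.77 ± 0.083 (adjusted p 0.0447). Ppp1r15a encodes GADD34, the phosphatase subunit that reverses the phosphorylation of eIF2, and read -0.55 and -0.43 on day 3 and 0.11 and 0.10 on day 7, a rise of 0.60 ± 0.066 (adjusted p 0.0447). For all 3 genes the day 3 replicates were below 0 and the day 7 replicates above it.

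Over the whole list of the integrated stress response, 6 of 32 measured genes rose, 0 fell and 26 did not pass, against 0.168% and 0.188% of all genes. The difference was above 0 for 31 of the 32, against 7205 of 14870 genes. In 28 of the 32 both day 7 replicates were above both day 3 replicates, where 20.9% of all genes showed this. This list, like all 28 fixed lists, was chosen with earlier results of these data known, so such shares describe it and test nothing. The median difference of the list was 0.40, against -0.0032 over all genes, and lay between 0.36 and 0.46 when each replicate was left out in turn. By replicate, the median log2 ratio of the list was -0.33 and -0.29 on day 3 and 0.01 and 0.08 on day 7. The list as a whole thus sat below 0 in both day 3 replicates and close to 0 in both day 7 replicates.

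Several members of the list had differences as large as those that passed without passing themselves. Slc7a3, a transporter of cationic amino acids, read -1.19 and -1.44 on day 3 and -0.34 and 0.25 on day 7, a difference of 1.26 ± 0.21 (adjusted p 0.0869). Gdf15, a secreted stress cytokine, read -1.12 and -0.99 on day 3 and -0.30 and 0.01 on day 7, a difference of 0.91 ± 0.11 (adjusted p 0.0539). Trib3, a pseudokinase that ATF4 and CHOP induce, read -1.04 and -1.10 on day 3 but -0.68 and 0.97 on day 7, a difference of 1.21 ± 0.49 (adjusted p 0.387). The day 7 replicates of Slc7a3, Gdf15 and Trib3 each disagreed in sign and stayed above the day 3 values, and those of Trib3 were the farthest apart. Psat1, an enzyme of serine synthesis, was the only member with a difference below 0, at -0.37 ± 0.27 (adjusted p 0.661). Its day 7 replicates read 0.0035 and -0.89, so the lower value came from replicate 2.

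**Figure D3:**
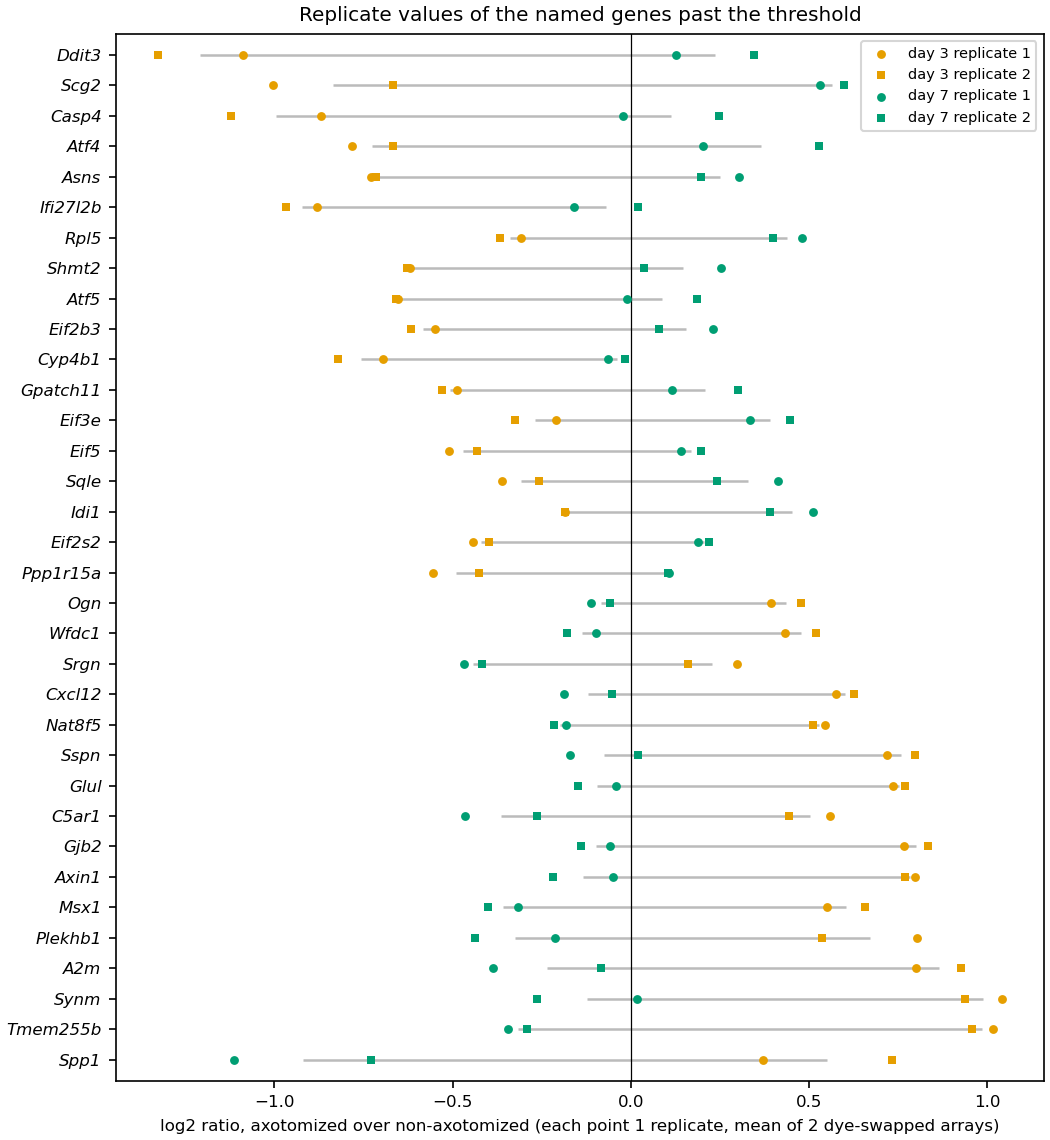
Each row is a named gene past the threshold, ordered by its day 7 minus day 3 difference, with the log2 ratio of each replicate (mean of 2 dye-swapped arrays) as a point and a grey line joining the means of the days. From Ddit3 to Ppp1r15a all day 7 points lie right of the day 3 points, and from Ogn to Spp1 all lie left of them.

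The aminoacyl-tRNA synthetases, which load tRNAs with their amino acids and of which many are targets of ATF4, shifted in the same direction without any of the 16 passing by limma (13 at an unadjusted p under 0.05). The difference was above 0 for 14 of 16, in 13 of the 16 the day 7 replicates were above the day 3 replicates (20.9% of all genes), and the median difference was 0.36, which became 0.75 under quantile normalization. Median log2 ratios of the list were -0.32 and -0.26 in the day 3 replicates and 0.11 and 0.07 in the day 7 replicates. Eprs1, which loads glutamate and proline, read -0.82 and -0.49 on day 3 and 0.38 and 0.45 on day 7, a difference of 1.07 ± 0.16 (adjusted p 0.0783). Gars1, which loads glycine, read -0.73 and -0.62 on day 3 and 0.74 and 0.19 on day 7, a difference of 1.14 ± 0.21 (adjusted p 0.101). Nars1, which loads asparagine, read -0.54 and -0.43 on day 3 and 0.03 and 0.18 on day 7, a difference of 0.59 ± 0.087 (adjusted p 0.0783). In each of these 3 genes the days did not overlap. Kars1 and Qars1, which load lysine and glutamine, had differences of -0.06 and -0.05.

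Of the lists whose promoters were searched, the synthetases most often held TTGCATCA, a form of the C/EBP-ATF composite element through which ATF4 and its C/EBP partners bind, and the matches are shown because these genes shifted together. Promoter windows ran from 250 bases before to 50 bases after each gene's start, and both strands were searched. The element was in 6 of the 14 synthetase windows (42.86%), in 3 of 29 windows of the integrated stress response (10.34%: Chac1, Fgf21 and Nupr1), and in 266 of 33469 windows of all genes (0.79%). Among the genes that rose it was in 1 of 18 windows, that of Eif2s2, the beta subunit of eIF2. It was in 0 of the 22 windows of genes that fell. The 6 synthetase windows and that of Eif2s2 are given from RefSeq (GRCr8), 5′ to 3′ along the gene, with the element on either strand in capitals and up to 40 bases on each side.
Aars1: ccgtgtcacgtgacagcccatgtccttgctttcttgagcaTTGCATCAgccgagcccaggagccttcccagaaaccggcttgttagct
Cars1: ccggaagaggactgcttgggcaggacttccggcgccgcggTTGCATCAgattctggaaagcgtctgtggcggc
Iars1: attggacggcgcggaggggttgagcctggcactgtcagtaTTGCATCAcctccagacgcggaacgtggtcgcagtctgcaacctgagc
Nars1: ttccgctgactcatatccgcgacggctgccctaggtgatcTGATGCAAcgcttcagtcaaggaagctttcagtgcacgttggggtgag
Tars1: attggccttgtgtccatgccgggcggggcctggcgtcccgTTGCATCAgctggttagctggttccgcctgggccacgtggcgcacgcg
Yars1: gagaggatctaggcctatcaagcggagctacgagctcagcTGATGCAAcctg
Eif2s2: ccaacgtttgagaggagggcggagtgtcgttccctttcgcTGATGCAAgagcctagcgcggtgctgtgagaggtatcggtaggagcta
Their positions are Aars1 chr19:55908330-55908417 on the plus strand, Cars1 chr1:208225320-208225392 on the minus strand, Iars1 chr17:15193629-15193716 on the minus strand, Nars1 chr18:60275749-60275836 on the minus strand, Tars1 chr2:62114782-62114869 on the minus strand, Yars1 chr5:146820161-146820212 on the plus strand, Eif2s2 chr3:163855559-163855646 on the minus strand. The match begins 112 bases before the start of Aars1, 24 before Iars1, 14 before Nars1, 27 before Tars1 and 36 before Eif2s2, and it lies after the start in Cars1 and Yars1. In Aars1 and Iars1 the same bases also hold the second form that was searched, TGATGNAAT, on the other strand. The 6 synthetases with the element had differences from 0.18 (Tars1) to 0.66 (Yars1). Eprs1, Sars1 and Lars1, whose windows hold no such match, had differences of 1.07, 0.79 and 0.55. A match is a run of letters and not a measured binding site.

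Translation initiation factors, the proteins that bring the first tRNA and the ribosome to a messenger RNA, were the other group among the genes that rose. This list, all measured genes whose symbol starts with Eif and a digit, was chosen after its values were seen and is given as a description. It was taken by symbol alone, so it may hold genes that are not themselves initiation factors. Eif2s2 read -0.44 and -0.40 on day 3 and 0.19 and 0.22 on day 7, a rise of 0.63 ± 0.046 (adjusted p 0.0412). Its 3 spots gave differences of 0.57, 0.58 and 0.73, all in the same direction. Eif2b3, a subunit of eIF2B, the exchange factor that recharges eIF2, read -0.55 and -0.62 on day 3 and 0.23 and 0.08 on day 7, a rise of 0.74 ± 0.079 (adjusted p 0.0447). Eif5, which triggers GTP hydrolysis by eIF2, read -0.51 and -0.43 on day 3 and 0.14 and 0.20 on day 7, a rise of 0.64 ± 0.053 (adjusted p 0.0412). Eif3e, a subunit of the scaffold factor eIF3, read -0.21 and -0.33 on day 3 and 0.34 and 0.45 on day 7, a rise of 0.66 ± 0.067 (adjusted p 0.0435). In all 4 genes the ratio was below 0 in both day 3 replicates and above 0 in both day 7 replicates.

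Of the 46 genes measured in this list by symbol, 4 rose, 0 fell and 36 had a difference above 0, with a median difference of 0.12. This median was 0.06 when day 7 replicate 1 was left out and 0.20 when day 7 replicate 2 was. The other subunits of eIF2, Eif2s1 and Eif2s3, had differences of 0.46 ± 0.075 (adjusted p 0.0869) and 0.57 ± 0.076 (adjusted p 0.0681), with day 7 above day 3 in both replicates of each. Among 69 cytosolic ribosomal proteins, also listed after their values were seen, Rpl5 rose and the other 68 did not pass. Rpl5, a protein of the large ribosomal subunit, read -0.31 and -0.37 on day 3 and 0.48 and 0.40 on day 7, a rise of 0.78 ± 0.078 (adjusted p 0.0429), and its 3 spots gave 0.53, 0.90 and 0.91. The median of the ribosomal list was 0.08 and turned to -0.04 without day 3 replicate 2, so the list as a whole had no steady direction.

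Cholesterol synthesis, which in brain is carried out locally and supplies membranes and myelin, was the second pathway with more than 1 gene that rose. Sqle, squalene epoxidase, read -0.36 and -0.26 on day 3 and 0.41 and 0.24 on day 7, a rise of 0.64 ± 0.074 (adjusted p 0.0479). Idi1, which makes the isoprenoid unit used early in the pathway, read -0.18 and -0.19 on day 3 and 0.51 and 0.39 on day 7, a rise of 0.64 ± 0.056 (adjusted p 0.0412). Both genes were below 0 on day 3 and above 0 on day 7 in each replicate. Of the 20 genes measured, 2 rose, 0 fell, and all 20 had a difference above 0. In 14 of the 20 the days did not overlap (20.9% of all genes), and the median difference was 0.29, between 0.24 and 0.33 with a replicate left out. Fdft1, squalene synthase, read -0.23 and -0.38 on day 3 and 0.29 and 0.18 on day 7, a difference of 0.54 ± 0.11 (adjusted p 0.127). Srebf2, the transcription factor that controls the pathway, had a difference of 0.04 ± 0.098 (adjusted p 0.923). The sterol element TCACNCCAC was in 0 of 16 promoter windows of this list and in 1.12% of all windows, on either strand.

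Of 25 chaperone and folding genes, of the endoplasmic reticulum and of other compartments, 0 passed by limma (16 at an unadjusted p under 0.05). The difference was above 0 for 22 of the 25, the days did not overlap with day 7 higher in 17 (20.9% of all genes), and the median difference was 0.31, which became 0.58 under quantile normalization and 0.60 over the members with 1 spot. Hspa5, the chaperone BiP, read -0.83 and -0.39 on day 3 and 0.46 and 0.49 on day 7, a difference of 1.09 ± 0.17 (adjusted p 0.0801). Hsp90b1, the reticulum's HSP90, read -0.87 and -0.44 on day 3 and 0.68 and 0.39 on day 7, a difference of 1.19 ± 0.21 (adjusted p 0.0988). The day 3 replicates of both genes lay farther apart than those of Ddit3 or Atf4, and the days did not overlap. The inducible cytosolic heat shock genes Hspa1a and Hspa1b had differences of 0.01 and -0.02.

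**Figure D4:**
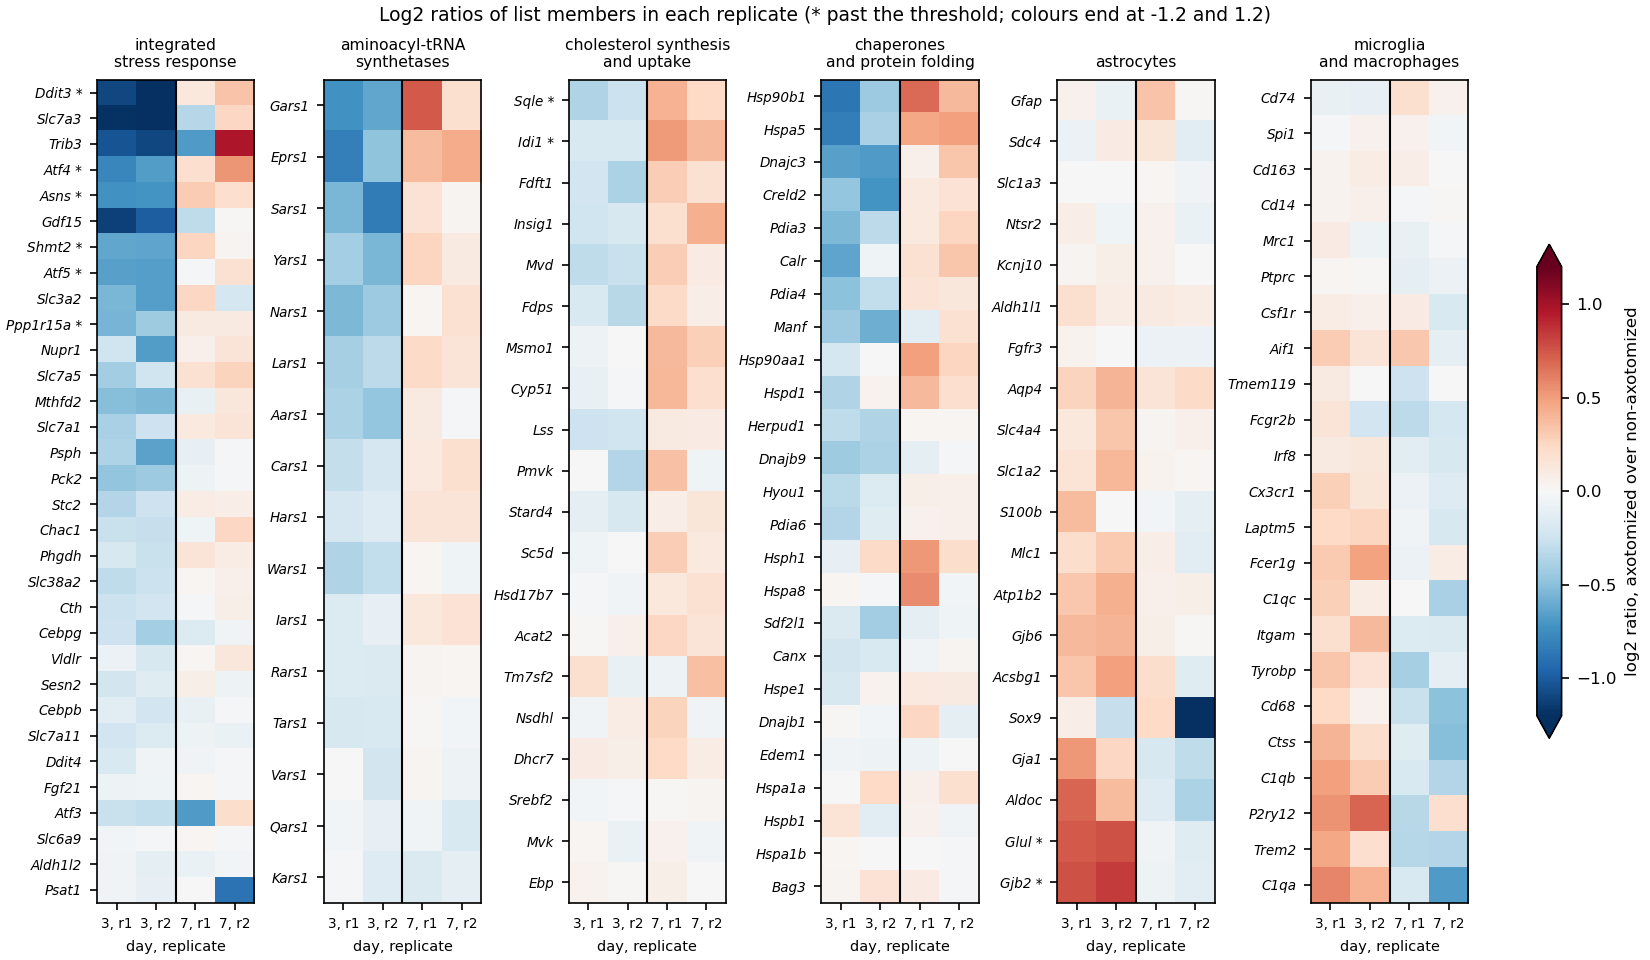
Each panel is a gene list, each row a gene ordered by its difference and each column a replicate (r1 and r2) of day 3 or day 7, with the log2 ratio as colour and a star on genes past the threshold. Most rows of the stress, synthetase and chaperone panels are blue on day 3 and pale or red on day 7, and the lower rows of the astrocyte and microglia panels run from red to pale or blue.

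Other genes that rose belong to no list with more than 1 gene that rose. Scg2 encodes secretogranin II, a protein of neuronal secretory vesicles and the source of the peptide secretoneurin. Scg2 read -1.00 and -0.67 on day 3 and 0.53 and 0.60 on day 7, a rise of 1.40 ± 0.15 (2.64-fold, adjusted p 0.0447). Among 23 neuropeptide and granin genes it was the 1 that rose, and the median of this list was 0.01, with values from 0.01 to 0.09 when a replicate was left out (0.09 without either day 7 replicate, 0.06 without day 3 replicate 2). Vgf, another neuronal secretory protein, had a difference of 0.94 (adjusted p 0.301). Promoters were also searched for 3 other elements. The NF-kB element GGGANTTTC was in 2 of 18 windows of genes that rose and 1 of 22 of genes that fell (1.15% of all windows). For the interferon element GAAANNGAA these were 4 and 3 (9.71%). The cyclic AMP element TGACGTCA was in 2 and 0 (1.83%). Its 2 windows, those of Scg2 and Ppp1r15a, are shown with the element in capitals.
Scg2: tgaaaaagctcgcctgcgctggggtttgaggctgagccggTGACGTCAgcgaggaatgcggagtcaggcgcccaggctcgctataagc
Ppp1r15a: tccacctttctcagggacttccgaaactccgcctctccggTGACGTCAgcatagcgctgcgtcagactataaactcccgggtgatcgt
They lie at Scg2 chr9:88256942-88257029 on the minus strand and Ppp1r15a chr1:105139615-105139702 on the minus strand (GRCr8, RefSeq). The element begins 123 bases before the start of Scg2 and 66 before that of Ppp1r15a.

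Casp4, an inflammatory caspase, read -0.87 and -1.12 on day 3 and -0.02 and 0.25 on day 7, a rise of 1.11 ± 0.12 (adjusted p 0.0447). Cyp4b1, a cytochrome P450, read -0.69 and -0.82 on day 3 and -0.06 and -0.01 on day 7, a rise of 0.72 ± 0.062 (adjusted p 0.0412). Gpatch11, a protein with a G-patch domain, read -0.49 and -0.53 on day 3 and 0.12 and 0.30 on day 7, a rise of 0.72 ± 0.071 (adjusted p 0.0429). Casp4 and Cyp4b1 were low on day 3 and close to 0 on day 7, whereas Gpatch11 was above 0 on day 7 in both replicates. Ifi27l2b, of an interferon-inducible family, read -0.88 and -0.97 on day 3 and -0.16 and 0.02 on day 7, a rise of 0.85 ± 0.075 (adjusted p 0.0412). Its 2 spots disagreed, with differences of -0.13 and 1.84, so the rise came from a single spot. Of 28 interferon response genes it was the 1 that rose, 0 fell, and the list's median difference of 0.08 became 0.02 when day 7 replicate 1 was left out and 0.15 when day 7 replicate 2 was. The difference was above 0 for 20 of the 28. Day 7 lay wholly above day 3 in 13 (20.9% of all genes) and wholly below in 4 (21.9%).

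Among the genes that fell, Spp1 had the largest difference. Spp1 encodes osteopontin, a secreted protein of activated microglia and macrophages. It read 0.37 and 0.73 on day 3 and -1.11 and -0.73 on day 7, and so fell by 1.47 ± 0.16 (2.77-fold, adjusted p 0.0447). The day 3 replicates were above 0 and the day 7 replicates well below it, and unlike most of the 53 genes its day 7 mean was the farther from 0. C5ar1, the receptor for the complement fragment C5a on phagocytes, read 0.56 and 0.44 on day 3 and -0.46 and -0.26 on day 7, and so fell by 0.87 ± 0.10 (adjusted p 0.0497). Srgn, serglycin, the proteoglycan of immune cell granules, read 0.30 and 0.16 on day 3 and -0.47 and -0.42 on day 7, and so fell by 0.67 ± 0.061 (adjusted p 0.0412). The chemokine gene Cxcl12 read 0.58 and 0.63 on day 3 and -0.19 and -0.05 on day 7, and so fell by 0.72 ± 0.077 (adjusted p 0.0447). All 4 genes were above 0 on day 3 and below 0 on day 7 in every replicate.

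Markers of microglia and macrophages were lower on day 7 as a list, and 0 of 23 passed by limma (13 at an unadjusted p under 0.05). The difference was below 0 for 22 of the 23, the day 7 replicates lay below the day 3 replicates in 15 (21.9% of all genes), and the median difference was -0.33. Median log2 ratios of the list were 0.24 and 0.14 on day 3 and -0.11 and -0.15 on day 7. Trem2, a receptor of microglia for lipids and debris, read 0.46 and 0.20 on day 3 and -0.34 and -0.35 on day 7, a difference of -0.68 ± 0.09 (adjusted p 0.0665). C1qa, a chain of complement C1q, read 0.59 and 0.41 on day 3 and -0.18 and -0.68 on day 7, a difference of -0.93 ± 0.16 (adjusted p 0.0969). In RNA of whole cultures, fewer cells of a type and less RNA per cell cannot be told apart. Whether the microglial markers and the falls of Spp1, C5ar1 and Srgn share a source was not tested. Not all phagocyte genes were lower: Hmox1, heme oxygenase, read -1.04 and -0.64 on day 3 and 0.02 and -0.22 on day 7, a difference of 0.74 ± 0.17 (adjusted p 0.149). Of the 24 genes of activated phagocytes and lysosomes 2 fell (Spp1 and Srgn), 0 rose, and the median difference of -0.11 was -0.05 without day 7 replicate 2, -0.19 without day 7 replicate 1 and -0.25 under quantile normalization.

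Astrocyte genes made up the other group among the falls. Gjb2 encodes connexin 26, a gap junction protein of astrocytes and meningeal cells, and read 0.77 and 0.83 on day 3 and -0.06 and -0.14 on day 7, and so fell by 0.90 ± 0.072 (adjusted p 0.0412). Glul, glutamine synthetase, which converts glutamate taken up at synapses, read 0.74 and 0.77 on day 3 and -0.04 and -0.15 on day 7, and so fell by 0.85 ± 0.058 (adjusted p 0.0412). Both genes were high on day 3 and near 0 on day 7. The 3 spots of Glul did not all move: they gave differences of -1.47, -1.22 and 0.16. Of 20 astrocyte markers 2 fell, 0 rose and 19 had a difference below 0, with a median difference of -0.26, which became -0.39 under quantile normalization. In 13 of the 20 the day 7 replicates lay below those of day 3 (21.9% of all genes). The exception was Gfap, the intermediate filament protein of astrocytes, with a difference of 0.19 (adjusted p 0.729).

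Genes of the reactive state of astrocytes did not share a direction. Synm, synemin, a filament protein that partners with GFAP and vimentin, read 1.04 and 0.94 on day 3 and 0.02 and -0.26 on day 7, and so fell by 1.11 ± 0.099 (adjusted p 0.0412). A2m, alpha-2-macroglobulin, an inhibitor that traps proteases, read 0.80 and 0.93 on day 3 and -0.39 and -0.08 on day 7, and so fell by 1.10 ± 0.11 (adjusted p 0.0429). Both were high on day 3 and lower, with no overlap, on day 7. Of the 23 reactive astrocyte genes these 2 fell and 0 rose, 12 had a difference above 0, and the median difference was 0.0043, between -0.01 and 0.03 with a replicate left out. Vim, vimentin, had a difference of 0.03 (adjusted p 0.967), and Cryab, a small heat shock protein, one of 0.60 (adjusted p 0.111).

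The remaining named genes that fell have varied roles. Tmem255b, a membrane protein, read 1.02 and 0.96 on day 3 and -0.34 and -0.29 on day 7, and so fell by 1.30 ± 0.077 (2.47-fold, adjusted p 0.0412). Plekhb1, a protein with a pleckstrin homology domain, read 0.80 and 0.54 on day 3 and -0.21 and -0.44 on day 7, and so fell by 1.00 ± 0.11 (adjusted p 0.0454). Msx1, a homeobox transcription factor, read 0.55 and 0.66 on day 3 and -0.32 and -0.40 on day 7, and so fell by 0.96 ± 0.076 (adjusted p 0.0412). These 3 genes were above 0 on day 3 and below 0 on day 7 in both replicates. Axin1, a scaffold of the complex that degrades beta-catenin, read 0.80 and 0.77 on day 3 and -0.05 and -0.22 on day 7, and so fell by 0.92 ± 0.071 (adjusted p 0.0412). Sspn, sarcospan, a partner of the dystrophin complex, read 0.72 and 0.80 on day 3 and -0.17 and 0.02 on day 7, and so fell by 0.83 ± 0.084 (adjusted p 0.0429). Axin1 and Sspn were high on day 3 and near 0 on day 7.

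Nat8f5, of an N-acetyltransferase family, read 0.54 and 0.51 on day 3 and -0.18 and -0.22 on day 7, and so fell by 0.73 ± 0.052. Wfdc1, a secreted protein with a WAP domain, read 0.43 and 0.52 on day 3 and -0.10 and -0.18 on day 7, and so fell by 0.61 ± 0.056. Both had an adjusted p of 0.0412. Ogn, osteoglycin, a small proteoglycan of connective tissue, read 0.39 and 0.48 on day 3 and -0.11 and -0.06 on day 7, and so fell by 0.52 ± 0.056 (adjusted p 0.0447). It was the 1 gene that fell of 25 fibroblast and collagen genes, whose median difference was -0.01, between -0.06 and 0.01 with a replicate left out. In all 3 genes the replicates of a day lay close together and the days did not overlap.

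Markers of choroid plexus and ependyma, the tissues that line the ventricles, showed the largest differences of all without passing. Ttr, transthyretin, the main secreted protein of choroid plexus, read 0.73 and 2.18 on day 3 and -2.55 and -1.79 on day 7, a difference of -3.63 ± 0.74 (adjusted p 0.119). Sostdc1, also high in choroid plexus, read 0.34 and 2.57 on day 3 and -1.03 and -1.54 on day 7, a difference of -2.74 ± 0.68 (adjusted p 0.172). For both, day 3 replicate 2 was far above day 3 replicate 1. Igf2, expressed in choroid plexus and meninges, read 0.35 and 0.84 on day 3 and -0.44 and -0.44 on day 7, a difference of -1.04 ± 0.15 (adjusted p 0.0783). Of the 18 genes of the list 0 passed by limma (11 at an unadjusted p under 0.05), 16 had a difference below 0 and in 10 the day 7 replicates lay below those of day 3 (21.9% of all genes), with a median of -0.21 that became -0.44 under quantile normalization. Not all members were lower: Igfbp2, a binding protein of insulin-like growth factors, read -0.50 and -0.55 on day 3 and -0.06 and -0.08 on day 7, a difference of 0.46 ± 0.084 (adjusted p 0.105), and it was 1 of 2 members with both day 7 replicates above those of day 3. Most of these markers were lower on day 7, as the 28 genes that fell were, and their part in those falls was not tested. The table holds ratios only, so whether a marker was abundant or near background in these cultures was not analysed here.

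**Figure D5:**
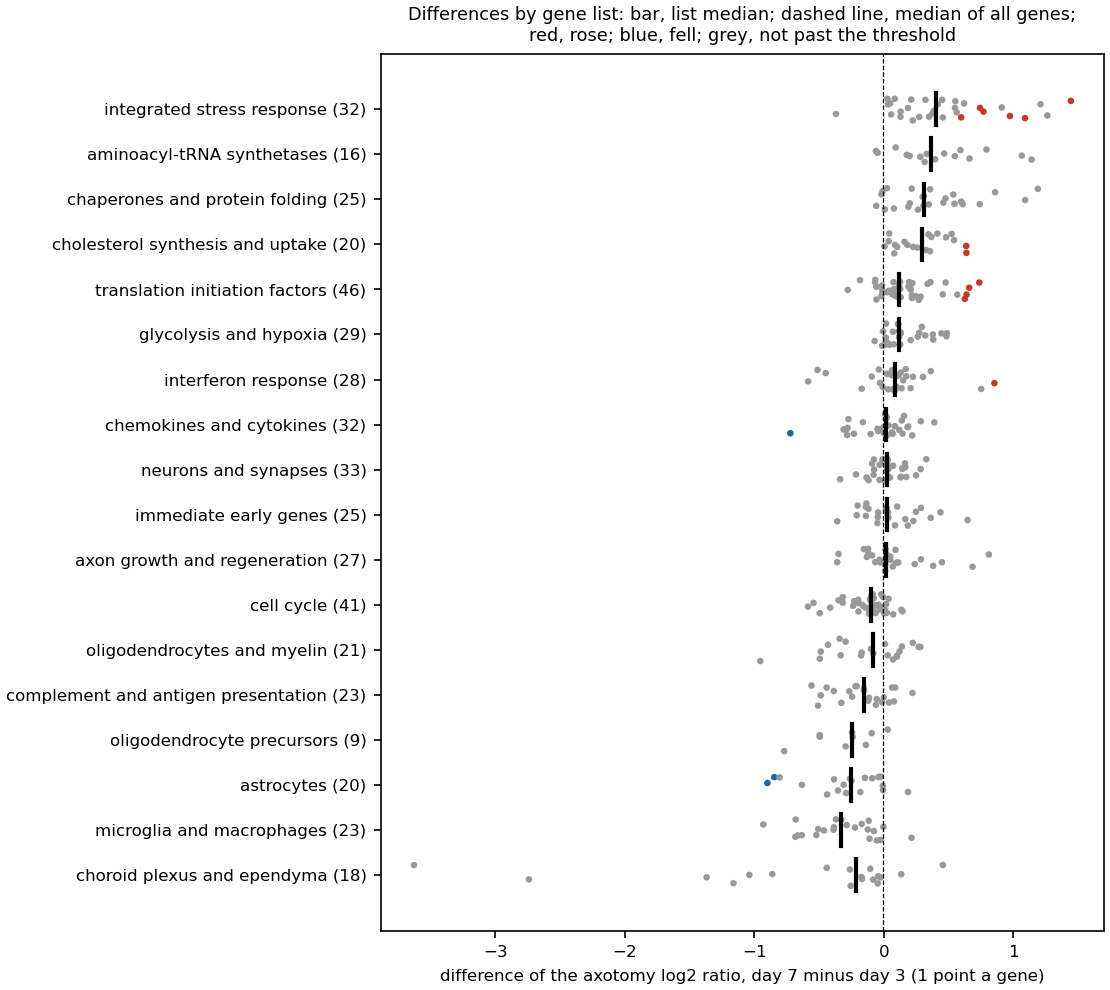
Each point is a gene and each row a list, with the number of measured genes in brackets, the day 7 minus day 3 difference (log2) on the horizontal axis, a black bar at the list median and a dashed line at the median of all genes. The stress response, synthetase, chaperone and cholesterol medians lie between 0.29 and 0.40, and those of astrocytes, microglia and choroid plexus between -0.33 and -0.21, while those of the neuronal and axon growth lists are 0.02 and 0.01.

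Lists of neurons and axon growth had small medians. Of 33 neuron and synapse genes 0 passed by limma (3 at an unadjusted p under 0.05) and the median difference was 0.02. It was 0.03 in 25 immediate early genes, 0.01 in 27 axon growth genes and 0.01 in 31 axon guidance genes, where 0 passed by limma and 4, 5 and 3 had an unadjusted p under 0.05. Over all genes, 1927 of 14870 had such a p. With a replicate left out, these 4 medians ranged from -0.03 to 0.08, and the sign changed in all but that of the immediate early genes. Cntf, a ciliary neurotrophic factor made by astrocytes after injury, read -0.85 and -1.03 on day 3 and -0.09 and -0.17 on day 7, a difference of 0.81 ± 0.13 (adjusted p 0.0826). Its ratio was well below 0 on day 3 and nearer to 0 on day 7. Abcb1a, an efflux pump of the vessel wall, read -0.80 and -0.66 on day 3 and 0.01 and 0.04 on day 7, a difference of 0.76 ± 0.092 (adjusted p 0.0557), while the 24 endothelial and pericyte genes had a median of 0.01.

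In 5 further lists 0 genes passed by limma. Beside their counts at an unadjusted p under 0.05 stand 1927 of 14870 genes in all. Of 41 cell cycle genes 9 had an unadjusted p under 0.05 and 33 had a difference below 0, with a median of -0.10, and in 28 the day 7 replicates lay below those of day 3 (21.9% of all genes). Cdk1, the kinase that drives mitosis, read 0.51 and 0.42 on day 3 and -0.26 and 0.01 on day 7, a difference of -0.59 ± 0.14 (adjusted p 0.151). Of 29 glycolysis and hypoxia genes 26 were above 0, with a median of 0.12 and 4 at an unadjusted p under 0.05. Of 9 genes of oligodendrocyte precursors 8 were below 0, with 5 at an unadjusted p under 0.05 and a median of -0.25 that was -0.15 without day 7 replicate 2 and -0.77 under quantile normalization. Pdgfra, the growth factor receptor of these precursors, read 0.50 and 0.74 on day 3 and -0.18 and -0.12 on day 7, a difference of -0.77 ± 0.12 (adjusted p 0.0826). Of 21 genes of oligodendrocytes and myelin 10 were above 0 and 11 below, and 9 had an unadjusted p under 0.05. The 23 complement and antigen presentation genes had a median of -0.15, which weakened to -0.08 if day 7 replicate 2 was left out and to -0.09 if day 3 replicate 2 was, and became -0.23 if day 7 replicate 1 was, with 18 below 0 and 10 at an unadjusted p under 0.05.

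Among 25 genes of mitochondrial respiration 20 were below 0, with a median of -0.10, and among 23 proteoglycan and scar matrix genes 20 were below 0, with a median of -0.08. In each of these lists 0 passed by limma and 4 had an unadjusted p under 0.05, against 1927 of 14870 genes in all. Bgn, biglycan, a small matrix proteoglycan, read 0.62 and 1.04 on day 3 and -0.03 and -0.05 on day 7, a difference of -0.87 ± 0.14 (adjusted p 0.0826). Cxcl12 was the 1 gene that fell of 32 chemokine and cytokine genes, of which 18 were above 0 and 14 below. A2m was the 1 that fell of 22 proteases and inhibitors, whose median was -0.04, between -0.08 and -0.02 with a replicate left out. Of 18 iron and heme genes 0 passed by limma (6 at an unadjusted p under 0.05), with a median of 0.05 that was 0.02 without day 3 replicate 1. The 5 blood genes measured, hemoglobin beta among them, had differences between -0.07 and 0.02, with 0 at an unadjusted p under 0.05 by limma.

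The other 19 genes that passed had smaller differences. The 7 that rose lay between 0.49 and 0.61, and the 12 that fell between -0.61 and -0.44.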

How the data were processed

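Axotomized and non-axotomized RNA was measured on 2-colour Agilent rat arrays. The authors used limma (no version given), per the submitters' processing notes, and deposited log2 ratios for 44290 spots. How background and normalization were handled, and the log base, are not given in the sources used here; base 2 follows limma's convention. Array medians lay between -0.022 and 0.027. On 731 spots without a gene the ratio turned with the dyes (median -4.26 with axotomized RNA in Cy5, 3.81 in Cy3), so the columns likely run in 1 RNA direction. The table holds no intensities, so dim spots were not filtered and background correction was not redone.

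Spots with 1 symbol (23535) were averaged into 14870 genes, with symbols updated through Entrez IDs to RefSeq (GRCr8; 23488 matched by Entrez ID, 9 by accession, 38 kept). A further 48 spots with several symbols and 20707 without any entered only the test of spots. The 2 arrays of a replicate were averaged. The 6 replicates were fitted with limma 3.58.1 (R 4.3.3, data.table, version 1.17.8), with 1 coefficient per day, the contrast day 7 minus day 3, two-sided, Benjamini-Hochberg over all genes, and 3 residual and 2.72 prior degrees of freedom. The number of arrays limits the precision.

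The comparison, the 28 gene lists and the rules were chosen with earlier results of these data known. Named are the 15 largest rises and falls past the threshold with non-overlapping days and 1 sign in both dye orientations, without placeholder symbols, and up to 4 members per list with the smallest p plus every member that passed. Further genes named (Slc7a3, Gdf15, Trib3, Psat1, Gars1, Kars1, Qars1, Tars1, Yars1, Srebf2, Hsp90b1, Hspa1a, Hspa1b, Eif2s1, Eif2s3, Vgf, Vim, Gfap and Sostdc1) were picked after their values were seen, and others for a promoter match. On data simulated with the spread of these genes, 66 of 100 shifted by 0.5 and 86 of 100 shifted by 1 were recovered, and 5 of 157 calls were false. The simulation drew each gene independently from normal noise, with its estimated spread taken as true. These rates therefore need not hold for the real data. Promoter windows were found for 40 of the 53 genes. Plots used matplotlib 3.10.9 under Python 3.11.15. Scan times are not given in the sources used here.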

Additional observations from a re-analysis of the deposited data

Results flagged for a closer look

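The axotomy ratio of 34 named genes differed between day 3 and day 7 by limma's test of the difference itself, with n = 2 replicates a day. Day 7 minus day 3 differences on the log2 scale were above 0 for Ddit3 (1.44), Scg2 (1.40), Casp4 (1.11), Atf4 (1.09), Asns (0.97), Ifi27l2b (0.85), Rpl5 (0.78), Shmt2 (0.77), Atf5 (0.74), Eif2b3 (0.74), Cyp4b1 (0.72), Gpatch11 (0.72), Eif3e (0.66), Eif5 (0.64), Sqle (0.64), Idi1 (0.64), Eif2s2 (0.63) and Ppp1r15a (0.60). They were below 0 for Spp1 (-1.47), Tmem255b (-1.30), Synm (-1.11), A2m (-1.10), Plekhb1 (-1.00), Msx1 (-0.96), Axin1 (-0.92), Gjb2 (-0.90), C5ar1 (-0.87), Glul (-0.85), Sspn (-0.83), Nat8f5 (-0.73), Cxcl12 (-0.72), Srgn (-0.67), Wfdc1 (-0.61) and Ogn (-0.52). Groups of 2 replicates were not tested for single deviating values. Among spots without a listed gene, 0 passed by limma.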

How the results depend on the processing

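Of the 18 alternatives, 4 left the count of 53 genes within 1.5 times: quantile normalization gave 66 (24 shared with the 53), median centring and scaling 50, and the median of spots and the removal of spots that turn with the dyes gave 53 each. The sizes did not hold under quantile normalization: in 31 of the 34 named genes past the threshold it moved the difference by over 1.5 times. Spots that turn with the dyes entered this normalization, and their part in the sizes was not tested. The count was 0 with only the 4 replicates of days 3 and 7, 0 with the replicate number as a block (lowest adjusted p 0.0622) and 0 with trend and robust moderation (lowest 0.0882). The replicate numbers pair nothing known: deviations of day 3 and day 7 correlated at 0.014 over genes. It was 4 with axotomized RNA in Cy5 alone, 16 with it in Cy3 alone (9 of the 16 shared), and 11 over the 9212 genes with 1 spot (11 shared). Treating the 12 arrays as separate values with a random block gave 917 (52 shared), and adding a dye term gave 832 (53 shared). Both fits enter the dye-swapped arrays of a replicate singly, with an estimated correlation within a replicate of -0.17 and 0.23. Their larger counts do not rest on more biological replicates. Leaving out a replicate gave 0 to 19 genes. For single spots the count of 0 became 92 under quantile normalization and 0 to 1 without a replicate. The cause of these changes was not tested, except that fewer samples or genes entered where some were left out and more values where arrays entered singly. Neither Ccl7 (-0.0013 in Cy5 alone) nor Cst3 (0.0049 in Cy3 alone), both far from the threshold, kept its sign. Over the settings, list medians ranged from 0.36 to 0.55 for the stress response, 0.33 to 0.75 for synthetases, 0.29 to 0.60 for chaperones, 0.24 to 0.34 for cholesterol, -0.46 to -0.22 for microglia, -0.39 to -0.19 for astrocytes, -0.44 to -0.14 for choroid plexus and -0.77 to -0.15 for oligodendrocyte precursors. With 2 replicates a day, the spread of each gene rests on its own 3 residual degrees of freedom and on limma's shared estimate, with 2.72 prior degrees of freedom.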
